A study of Mus musculus with 5 samples.

Results

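The genes described here encode the proteins of the cytosolic ribosome, measured on oligonucleotide arrays of whole mouse lung. They were chosen by symbol alone: Rpl or Rps followed by a number with an optional a, l, x or y ending, or Rplp0, Rplp1, Rplp2, Rpsa or Fau, without the Rps6k kinases and without pseudogenes. Only probe sets that the platform annotation maps to that gene and no other were used, and the probe set with the highest mean stood for its gene. The rule found 45 genes of 12393 on the array, 24 of the large subunit and 21 of the small subunit. Rplp1 had no probe set mapped to it alone. The study measured 5 conditions with 1 array each, and each array received pooled RNA. The induced pool came from SM22-tet-BMPR2delx4+ mice given doxycycline, with a right ventricular pressure of 50 ± 8 mmHg. The uninduced pool came from the same line without doxycycline, at 30 ± 3 mmHg. The SM22-rtTA pool came from mice on doxycycline that carry the activator alone, also at 30 ± 3 mmHg. All 3 carry 8 weeks in their titles, which may be an age or a time on treatment. Those titles name no strain, and the pools called FVB/N below are those whose titles name that strain. FVB/N mice aged 8 weeks made up the wild-type pool, at 30 ± 3 mmHg, and the hypoxic pool, at 50 ± 8 mmHg, the latter having spent 4 weeks in hypoxia. SM22 is the promoter of the smooth muscle gene Tagln; it drives rtTA, the activator that needs doxycycline, and BMPR2delx4+ is a mutant form of the bone morphogenetic protein receptor BMPR2. The sources used here give neither the kind of error behind each pressure nor the number of animals in a pool. With 1 array a condition there is no replicate spread, so the differences below are values without a test and no p-value is given.

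Each ribosome joins a small subunit, which reads the messenger RNA, to a large subunit, which forms the peptide bond, and each subunit is ribosomal RNA dressed with proteins made from separate genes. Cells make these proteins in matching amounts, and their messenger RNAs are among the most abundant of most tissues, the lung included. Many of these messengers start with a run of pyrimidines, the 5′ terminal oligopyrimidine (TOP) tract, through which the kinase mTOR and the protein Larp1 regulate their translation. A change of that kind acts on translation and can leave the level of the messenger as it was. A few ribosomal proteins have a second, tissue-restricted gene copy, whose symbol ends in l.

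The windows that follow show the start of transcription of genes the results turn on, from RefSeq on GRCm38.p6. Each gives 40 bases before the annotated start and the 20 bases from the start onward, 5′ to 3′ on the strand of the gene. Capitals mark the first pyrimidine tract that begins between 5 bases before and 10 bases after the start; a window without capitals had none that began there, whatever lies further upstream. A tract was defined as a C followed by at least 4 further C or T bases on the sense strand. The first 4 genes show tracts at the start, the next 2 are members with a wide spread over the pools and no tract, and the last 5 pair each paralogue with the gene it is named after where that gene is a member; Rps27l and Rpl3l have a further start in the table, not shown.
Rpl38, chr11:114668540-114668599, plus strand: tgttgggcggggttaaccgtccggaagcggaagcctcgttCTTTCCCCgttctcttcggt
Rps10, chr17:27635225-27635284, minus strand: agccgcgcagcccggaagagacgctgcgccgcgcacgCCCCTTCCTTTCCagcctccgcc
Fau, chr19:6057907-6057966, plus strand: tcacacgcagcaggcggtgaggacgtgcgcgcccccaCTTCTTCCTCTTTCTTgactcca
Rps6, chr4:86857348-86857407, minus strand: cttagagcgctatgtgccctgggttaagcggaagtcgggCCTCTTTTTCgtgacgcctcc
Rpl37, chr15:5116573-5116632, plus strand: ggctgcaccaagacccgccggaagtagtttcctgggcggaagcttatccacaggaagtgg
Rpsa, chr9:120127726-120127785, plus strand: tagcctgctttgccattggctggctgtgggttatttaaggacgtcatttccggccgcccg
Rpl39, chrX:37085203-37085262, minus strand: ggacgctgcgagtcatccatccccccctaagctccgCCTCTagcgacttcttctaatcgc
Rpl39l, chr16:10170188-10170247, plus strand: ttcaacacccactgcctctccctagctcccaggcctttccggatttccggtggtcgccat
Rps27, chr3:90213629-90213688, minus strand: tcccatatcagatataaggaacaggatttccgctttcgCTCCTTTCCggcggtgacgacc
Rps27l, chr9:66946046-66946105, plus strand: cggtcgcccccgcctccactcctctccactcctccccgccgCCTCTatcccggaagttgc
Rpl3l, chr17:24727786-24727845, plus strand: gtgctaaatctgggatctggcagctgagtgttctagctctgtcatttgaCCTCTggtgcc
Rpl38 and Rps6 had tracts at the start itself or 1 base before it, whereas Rpl39l had none that began within the searched bases. Of the 40 members with an entry in the RefSeq promoter table, 24 (60.0%) had such a tract in at least 1 entry, against 27.7% of 27025 genes in that table. In 9 members (22.5%) and in 3.01% of all genes, the bases from the annotated start onward themselves met this definition. That count includes tracts that begin before the start and run across it. Rpl7, Rpl8, Rps14, Rps20 and Rps29 had no entry. A match describes these letters only, and annotated starts can lie some bases from those used in the lung.

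The deposited values were intensities between 50 and 12354, and each array was shifted on the log2 scale by -0.11 to 0.13 so that the 5 arrays shared a median over 9046 bright probe sets. A noise floor was set at a scaled intensity of 276, and a gene above it in at least 1 pool is called measured; 8590 genes were. Markers of lung were present in every pool, with 8 or 9 of 9 alveolar type 2 markers and 12 of 12 endothelial markers above the floor. Some pools also held transcripts of other tissues. All 19 skeletal muscle markers were above the floor in the induced pool, with a summed intensity of 82150, against 13 in the hypoxic pool (21278) and 4 to 9 in the other pools (7084 to 8581). In the wild-type pool 17 of 18 kidney proximal tubule markers were above the floor, with a summed intensity of 81894, against 4 to 6 markers and sums of 15017 to 17671 elsewhere. In whole lung, fewer cells of a type and less RNA per cell cannot be told apart.

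Ribosomal protein messengers were bright and nearly level over all 5 pools. Of the 45 members, 41 were measured and 39 were above the floor in every pool. The median intensity of those 39 was 6100 in the induced pool, 5901 in the uninduced pool, 6123 in hypoxia, 5685 in wild type and 5692 in SM22-rtTA. Rpl27a was above the floor in hypoxia alone (302), Rps25 in the induced pool alone (295), and Rpl12, Rpl14, Rpl3l and Rps27 were below it in every pool. The spread of a gene was taken as its highest over its lowest intensity among the 5 pools. The median spread of the 41 measured members was 1.16-fold, with quartiles of 1.11 and 1.22, against 1.56-fold over all measured genes. At least 1.5-fold separated the highest from the lowest pool in 4 members, Rpl39l, Rps27l, Rpsa and Rps6, or 9.76%, while 55.6% of all measured genes were that far apart. At a difference of at least 25% the count was 9 of 41 members against 83.1% of all measured genes, and at 2-fold it was 1 member, Rpl39l, against 22.5%.

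The members are bright, so they were also set beside other genes of similar brightness. Among 109 other genes above the floor in all pools and with a mean of at least 4992, the lower quartile of the members, the median spread was 1.38-fold and 32.1% were at least 1.5-fold apart. The median spread of the members was 1.22-fold with the values as deposited and 1.23-fold after quantile normalization, against 1.44-fold and 1.41-fold for the genes of like brightness. The plot of the spread shows the 3 sets of genes.

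**Figure D1:**
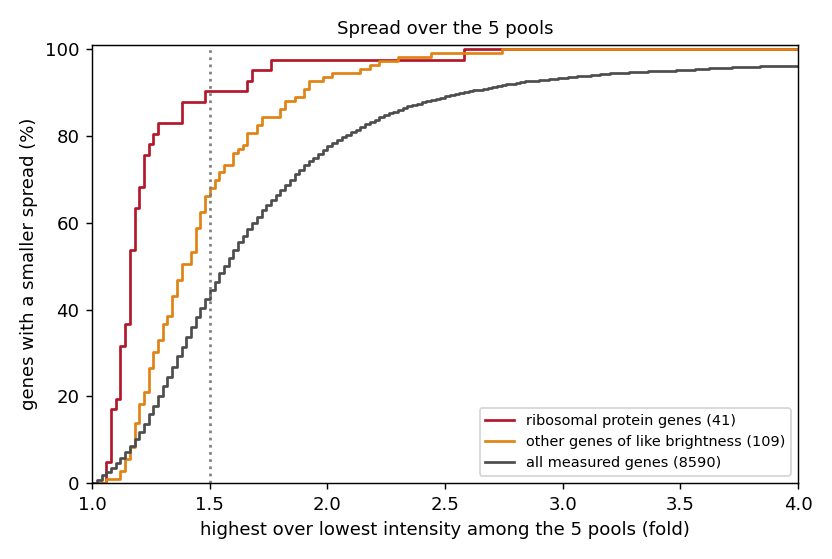
The x axis gives the highest over the lowest scaled intensity of a gene among the 5 pools, and the y axis the percent of genes with a smaller spread, for the 41 measured ribosomal protein genes, 109 other genes of like brightness and all 8590 measured genes; the dotted line marks 1.5-fold. At 1.5-fold the curve of the ribosomal protein genes is the highest of the 3, with 37 of 41 genes below that line.

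Rpl6, of the large subunit, had the narrowest spread of the members above the floor in all pools. It was at 5654 in the induced pool, 5516 in the uninduced pool, 5776 in hypoxia, 5654 in wild type and 5461 in SM22-rtTA. Its highest pool, hypoxia, exceeded its lowest, SM22-rtTA, 1.06-fold. Rpl22, Rps29 and Rps28 were equally narrow at 1.06-fold. Rps29 was at 8707 in the induced pool and between 9167 and 9234 in the other 4. Which pool was highest varied over the 39 members above the floor throughout. Hypoxia was highest for 13, uninduced for 11, wild type for 7, induced for 6 and SM22-rtTA for 2. Over all 5904 genes above the floor throughout, these shares were 20.6%, 19.0%, 22.9%, 20.3% and 17.2%. SM22-rtTA was the lowest pool for 17 members, uninduced for 10, induced for 5, wild type for 4 and hypoxia for 3. Over all such genes they were 20.6%, 12.5%, 16.1%, 31.0% and 19.8%. With spreads this narrow the order can turn on the scaling. The median log2 ratio of SM22-rtTA to the uninduced pool was -0.05 here and -0.004 as deposited.

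**Figure D2:**
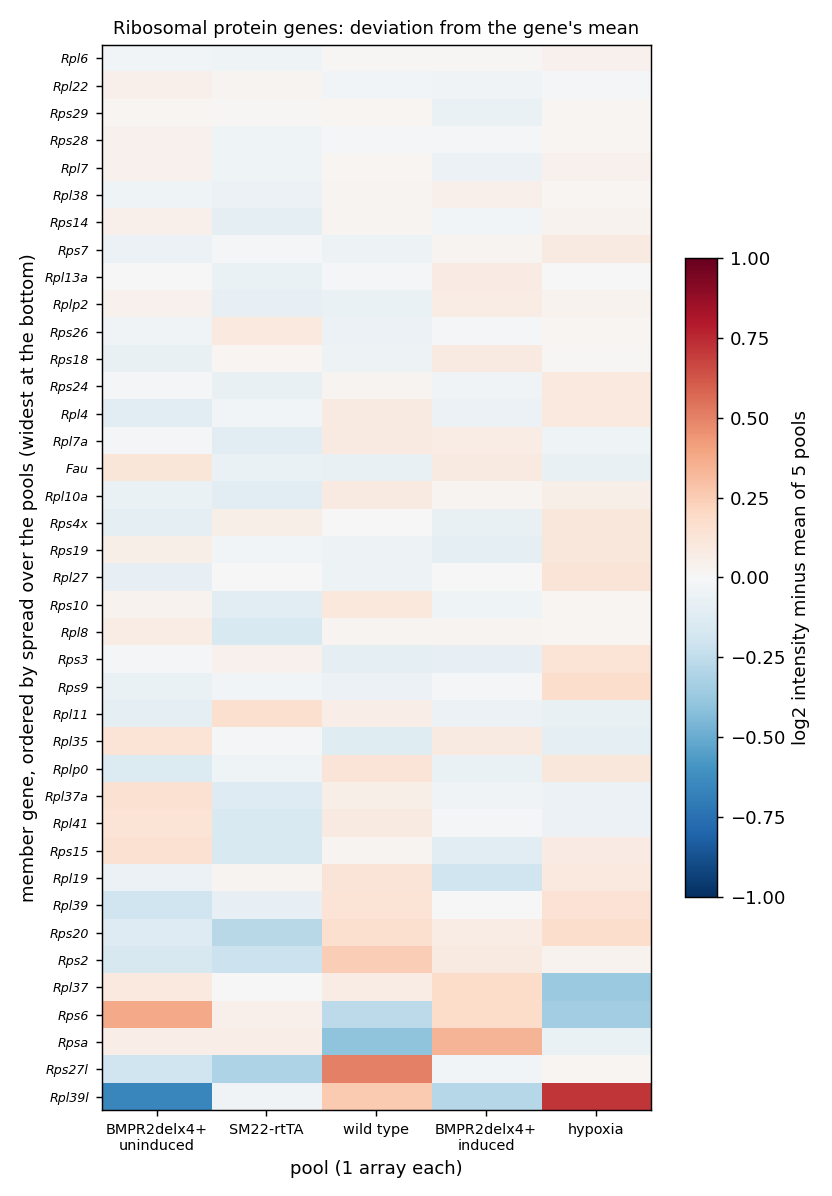
Each row is 1 of the 39 members above the floor in all pools, each column 1 pool (1 array each), and the colour gives the log2 intensity minus the mean of that gene over the 5 pools; genes are ordered from the narrowest spread at the top to the widest at the bottom. Colour is faint for most genes, and the deepest colours belong to Rpl39l, Rps27l, Rpsa, Rps6 and Rpl37 in the bottom rows.

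The induced pool was first set against the same line without doxycycline, which had neither the mutant receptor switched on nor raised pressure. No member reached 1.5-fold in either direction, 0 of 41, where 5.04% of all measured genes were higher and 2.57% lower at that limit. The median log2 ratio of the members was 0.03 with an SD over members of 0.13, and the SD over all measured genes was 0.40. The median was 0.04 for the large subunit and close to 0 for the small subunit. The highest ratios belonged to Rpl39l (0.36 on the log2 scale), Rpsa (0.28) and Rps2 (0.25), the last a small subunit protein near the messenger entry site. The lowest belonged to Rps15 and Rps6. Rps15, a small subunit protein, was at 5008 in the induced pool, 5997 in the uninduced pool, 5738 in hypoxia, 5505 in wild type and 4879 in SM22-rtTA. The induced pool lay below the uninduced pool by 0.26 on the log2 scale, but above SM22-rtTA.

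Against SM22-rtTA, which also received doxycycline, the induced pool again had 0 of 41 members past 1.5-fold, beside 9.72% of all measured genes higher and 6.11% lower. The median log2 ratio of the members was 0.06 with an SD of 0.14, against an SD of 0.49 over all measured genes. Rps20, a small subunit protein, had the highest ratio, 0.35. It was at 4942 in the induced pool, 4297 in the uninduced pool, 5308 in hypoxia, 5235 in wild type and 3870 in SM22-rtTA, so the SM22-rtTA pool was low and the 3 highest pools were of different kinds. This comparison and the previous one share the induced array.

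Hypoxia was compared with wild-type mice of the same strain and age. Here too 0 of 41 members passed 1.5-fold, beside 7.60% of all measured genes higher and 11.9% lower. The median log2 ratio was 0.02 with an SD of 0.17, against 0.66 over all measured genes. At a limit of 25%, 4 members passed, Rpl39l and Rpsa higher in hypoxia and Rps27l and Rpl37 lower, where 41.5% of all measured genes passed in either direction. The wild-type pool carried the proximal tubule markers given above, and their part in these ratios was not tested.

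Hypoxia was therefore also set against the mean log2 intensity of the uninduced and SM22-rtTA pools, in which 4 to 6 of the 18 proximal tubule markers were above the floor. Of 41 members 1 was higher, Rpl39l, and 0 were lower, beside 12.2% and 4.20% of all measured genes. The median log2 ratio of the members was 0.06 with an SD of 0.23, against 0.45 over all measured genes. The lowest ratios were those of Rps6 (-0.56) and Rpl37 (-0.42). Both stayed inside the limit of 1.5-fold at this scaling.

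The normal-pressure pools show how far members moved without raised pressure. Between SM22-rtTA and the uninduced pool, 1 of 41 members was higher in SM22-rtTA, again Rpl39l, and 0 were lower, beside 3.00% and 4.51% of all measured genes. The median log2 ratio was -0.05 with an SD of 0.17, against an SD of 0.32 over all measured genes. The SD of the members between these 2 normal-pressure pools was thus above that after induction (0.13). It was close to that in hypoxia against wild type (0.17). Rpl39l, at 0.62 on the log2 scale, weighed on it, and the next farthest from 0 was Rps6 at -0.33. For the large subunit, which includes Rpl39l, the SD was 0.20 against 0.13 after induction. For the small subunit it was 0.13 against 0.15. Between wild type and the mean of both transgenic pools, 2 of 41 members were higher, Rpl39l and Rps27l, and 0 lower, beside 16.9% and 10.1% of all measured genes. These calls depended on the scaling: as deposited 0 members were higher and 2 lower, Rps6 and Rpsa, and after quantile normalization 0 were higher and 1 lower, Rpsa. The median was 0.03 with an SD of 0.22, against 0.69 over all measured genes.

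The title of the series sets the 2 forms of raised pressure side by side. Between the induced and hypoxic pools 0 of 41 members were higher and 1 was lower after induction, Rpl39l, beside 10.7% and 11.4% of all measured genes. The median log2 ratio was -0.04 with an SD of 0.24, against 0.52 over all measured genes. The sign of so small a median depended on the scaling: with the values as deposited it was 0.075 here, and -0.10 for hypoxia against the transgenic pools. The median for wild type against the transgenic pools was -0.18 as deposited and -0.17 after quantile normalization. As deposited, the median of all measured genes itself lay at -0.14 for wild type and -0.12 for hypoxia against the transgenic pools, and at 0.07 for induction against hypoxia.

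The members were also counted at limits of 25% and 2-fold. At 25%, in either direction, 1 of 41 members passed for induction against the uninduced pool and 1 against SM22-rtTA, where 21.9% and 37.4% of all measured genes did. For hypoxia 4 passed against wild type, as above, and 4 against the transgenic pools, where 37.2% of all measured genes did, and for induction against hypoxia 4 passed beside 46.3%. Between normal-pressure pools 6 members passed for wild type against the transgenic pools, beside 50.2%, and 2 for SM22-rtTA against the uninduced pool, beside 25.3%. At 2-fold 1 member, Rpl39l, passed for hypoxia against the transgenic pools (4.10% of all measured genes) and for induction against hypoxia (5.08%). In the other 5 comparisons 0 of 41 passed at 2-fold, beside 2.15% and 4.24% of all measured genes for induction against the uninduced and SM22-rtTA pools, 7.99% for hypoxia against wild type, 9.74% for wild type against the transgenic pools and 1.23% for SM22-rtTA against the uninduced pool.

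Rpl39l had the widest spread of all members. It encodes a copy of the large subunit protein Rpl39, which lines the exit tunnel of the nascent chain, and is best known from male germ cells. Its intensity was 582 in the induced pool, 452 in the uninduced pool, 1166 in hypoxia, 850 in wild type and 693 in SM22-rtTA. Both FVB/N pools were thus above all 3 transgenic pools, with hypoxia highest. The highest pool exceeded the lowest 2.58-fold, hypoxia exceeded the mean of the transgenic normal-pressure pools 2.08-fold, and the difference from wild type was 0.46 on the log2 scale. The induced pool was at 0.499 times the intensity of hypoxia. SM22-rtTA exceeded the uninduced pool 1.53-fold, so normal-pressure pools differed in this gene too. In hypoxia, its calls against the transgenic pools and against the induced pool held under both other scalings, at 0.89 and -0.88 as deposited and at 1.06 and -1.05 after quantile normalization. Its call in wild type against the transgenic pools, 0.60 here, was lost under both. The gene rests on 1 probe set. Rpl39 itself, on the X chromosome, was at 4930 in the induced pool, 4298 in the uninduced pool, 5480 in hypoxia, 5436 in wild type and 4681 in SM22-rtTA. The FVB/N pools were again the highest, within a spread of 1.27-fold.

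Rps27l, the copy of the small subunit protein Rps27 known as a target of p53, was set apart by the wild-type pool. It was at 2291 in the induced pool, 2039 in the uninduced pool, 2373 in hypoxia, 3319 in wild type and 1889 in SM22-rtTA. Wild type lay 0.76 above the mean of the transgenic normal-pressure pools on the log2 scale, and hypoxia lay below wild type by 0.48. A further probe set of the gene gave 2189, 1934, 1930, 3233 and 1877 in the same order of pools, and the third gave 1823, 1818, 1814, 2860 and 1889, so wild type was highest on all 3. With the mean of the probe sets, the log2 ratio of hypoxia to wild type was -0.63, past the limit. The ratio of wild type to the transgenic pools no longer passed with the values as deposited or after quantile normalization. The proximal tubule markers were high in the same pool, and their part in this value was not tested. Rps27 itself was below the floor in every pool, so the pair cannot be compared.

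Rpl3l, the copy of Rpl3 expressed in skeletal and heart muscle, was below the floor in all pools and so not measured. Its deposited intensity was 277 in the induced pool, 61.4 in the uninduced pool, 53.5 in hypoxia, and at the lower limit of 50 in wild type and SM22-rtTA. After scaling the induced pool was at 270, just below the floor of 276. With the floor lowered to the 30th percentile, an intensity of 132, the induced pool was at least 2.04-fold above each of the others. All 19 skeletal muscle markers were above the floor in that pool, and their part in this value was not tested. Rpl3 is not among the members.

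**Figure D3:**
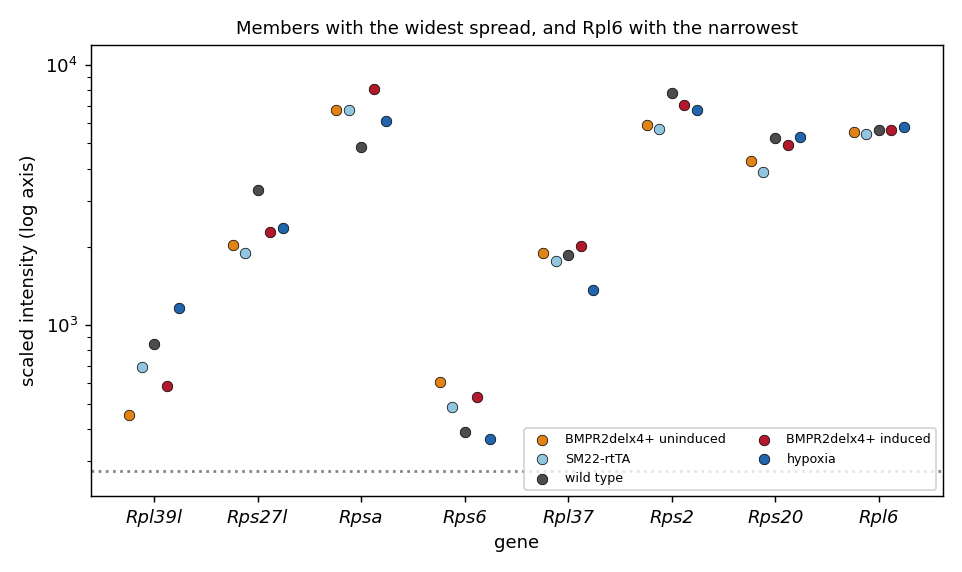
The y axis (log scale) gives the scaled intensity of the 7 members with the widest spread and of Rpl6, the narrowest; each point is 1 pool (1 array) and the dotted line is the floor of 276. Hypoxia is the highest point of Rpl39l and the lowest of Rpl37 and Rps6, wild type is the highest of Rps27l and the lowest of Rpsa, and the 5 points of Rpl6 almost coincide.

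Rpsa, a small subunit protein also described as a laminin receptor, ran from 8136 in the induced pool to 4857 in wild type. The uninduced pool was at 6706, SM22-rtTA at 6710 and hypoxia at 6123. The transgenic normal-pressure pools were thus alike, the induced pool lay 0.28 above both on the log2 scale, and wild type lay below their mean by 0.47. The latter difference passed 1.5-fold under both other scalings, at -0.69 as deposited and -0.72 after quantile normalization. Its second probe set was below the floor in all pools.

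Rps6, the small subunit protein phosphorylated by the S6 kinases downstream of mTOR, was at 529 in the induced pool, 605 in the uninduced pool, 366 in hypoxia, 390 in wild type and 483 in SM22-rtTA. Both FVB/N pools lay below all 3 transgenic pools, which is the reverse of Rpl39l. The highest pool exceeded the lowest 1.65-fold. With the values as deposited, the log2 ratio to the transgenic normal-pressure pools was -0.73 in hypoxia and -0.69 in wild type, both past the limit. The probe set used was dim for a member, where the medians of the pools ran from 5685 to 6123, and lay near the floor of 276. With the floor at the 70th percentile, Rps6 was no longer among the members at least 1.5-fold apart. Its other probe set was below the floor in every pool.

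Rpl37, of the large subunit, was low in hypoxia alone. It was at 2010 in the induced pool, 1894 in the uninduced pool, 1369 in hypoxia, 1865 in wild type and 1773 in SM22-rtTA. The highest pool exceeded the lowest 1.47-fold, just inside the limit of 1.5-fold, and Rps6 at 1.65-fold was the member just outside it. Against the transgenic pools, the log2 ratio of hypoxia was -0.59 with the values as deposited, past the limit. Rps2 was at 7014 in the induced pool, 5901 in the uninduced pool, 6754 in hypoxia, 7807 in wild type and 5681 in SM22-rtTA, so the transgenic normal-pressure pools were its lowest. Rpl37 and Rps2 each rest on 1 probe set, whose suffix x marks probes that also match other transcripts.

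The stalk proteins, which recruit elongation factors to the large subunit, stayed within narrow bounds. Rplp0, the base of the stalk, was at 6099 in the induced pool, 5805 in the uninduced pool, 6895 in hypoxia, 6992 in wild type and 6182 in SM22-rtTA. Its partner Rplp2 was at 8532, 8328, 8307, 7746 and 7647 in the same order. Rplp0 was highest in the FVB/N pools and Rplp2 in the induced pool, so they did not share an order. Fau, which encodes a ubiquitin-like protein fused to the small subunit protein Rps30, was at 6347, 6490, 5642, 5654 and 5692, and its highest pool exceeded its lowest 1.15-fold.

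Further members, some with roles outside the ribosome, also stayed within 1.5-fold. Rpl11, which with the 5S ribosomal RNA binds Mdm2 when ribosome assembly is disturbed, was at 4397 in the induced pool, 4302 in the uninduced pool, 4346 in hypoxia, 4785 in wild type and 5107 in SM22-rtTA. SM22-rtTA was its highest pool and wild type the next, and the other 3 lay close together. Rps19, whose human counterpart is mutated in Diamond-Blackfan anaemia, was at 4821, 5349, 5576, 4980 and 5037 in the same order, with both elevated-pressure pools at opposite ends. Rpl19, of the large subunit, ran from 5250 in the induced pool to 6585 in wild type. Rps4x, on the X chromosome, ran from 6531 in the uninduced pool to 7533 in hypoxia, 1.15-fold.

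How well 1 probe set stands for a gene was examined where a member had more. The 45 members had 96 probe sets, and 22 had more than 1, up to 6. A total of 35 further probe sets from 18 genes were above the floor in every pool. Their log2 ratios differed from those of the probe set used by a median of 0.05 for induction against the uninduced pool and of 0.17 for hypoxia against the transgenic pools. The sign differed for at least 1 probe set in 7 of 18 genes for induction and in 8 of 18 for hypoxia against wild type, and in 14 of 18 between induction and hypoxia. Differences between pools of the size seen in most members were therefore of the order of the difference between probe sets of 1 gene. The widest disagreement was in Rps18, of the small subunit. The probe set used was at 5875 in the induced pool, 5245 in the uninduced pool, 5571 in hypoxia, 5336 in wild type and 5597 in SM22-rtTA. A dimmer one gave 1024, 526, 1096, 756 and 1212 in the same order, with the uninduced pool low. Its ratios were 1.11 away on the log2 scale between SM22-rtTA and the uninduced pool. In Rpl13a, of the large subunit, a dimmer probe set gave 1024, 994, 1517, 1359 and 857, while the one used ran from 7358 to 8157. Of the probe sets used, 12 carried the suffix x, which in the naming of this array type marks probes that also match other transcripts.

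**Figure D4:**
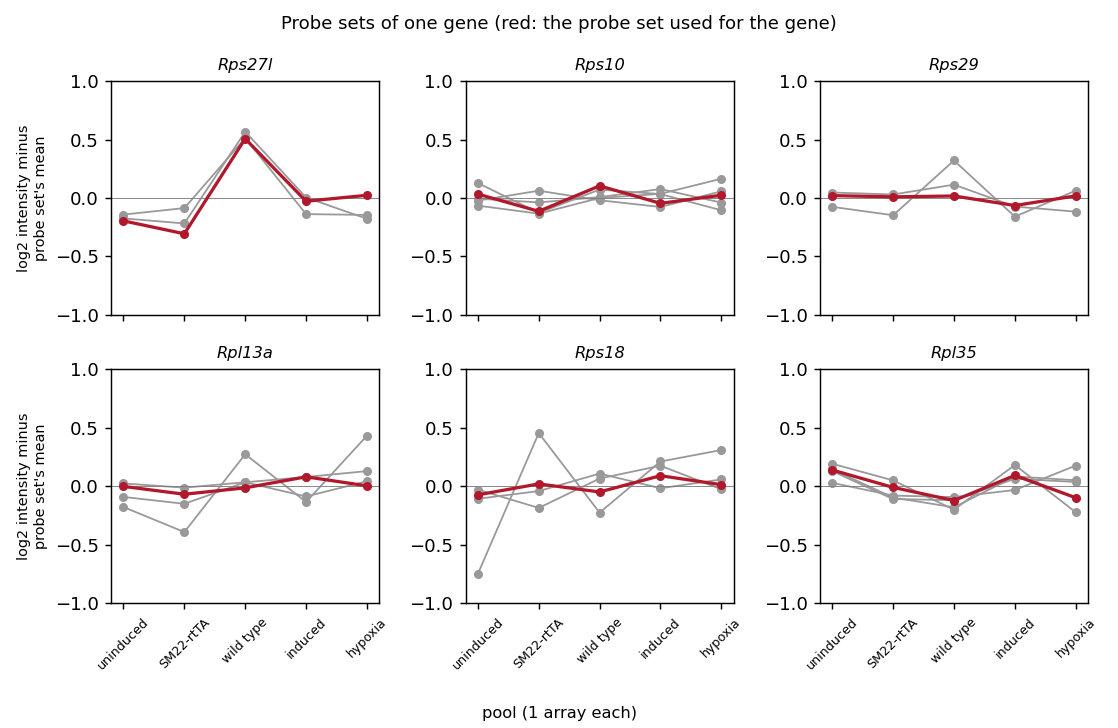
Each panel is 1 member with several probe sets above the floor in all pools; the y axis gives the log2 intensity of a probe set minus its own mean over the 5 pools, the x axis the pools (1 array each), with the probe set used for the gene in red and the others in grey. All 3 probe sets of Rps27l peak in wild type, whereas in Rps18 and Rpl13a 1 grey line departs from the others.

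The rule leaves out probe sets that the annotation maps to more than 1 gene, which is common for ribosomal proteins with many pseudogenes. There were 102 such probe sets listing a ribosomal protein gene, 88 of them measured, and they listed 41 ribosomal protein symbols, 27 of which are not members. Their median log2 ratio was 0.01 for induction against the uninduced pool, 0.03 for hypoxia against wild type and 0.09 for hypoxia against the transgenic pools. The numbers past 1.5-fold were 1 higher and 0 lower, 0 and 0, and 3 and 0. The members gave 0.03, 0.02 and 0.06 in the same comparisons. No gene is named from these probe sets.

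Other genes of translation are given from lists of pathway genes, with induction set against the uninduced pool. At 1.5-fold, 5.04% of all measured genes were higher and 2.57% lower after induction. The shares were 7.60% and 11.9% in hypoxia against wild type, and 12.2% and 4.20% against the transgenic pools. The translation initiation factors, which load the small subunit on the messenger, had 30 measured genes with a median spread of 1.27-fold. Of these 0 passed 1.5-fold after induction, 1 was lower in hypoxia than in wild type, and 3 were lower in hypoxia than in the transgenic pools (Eif2b4, Eif3k and Eif5b). Eif3k, a subunit of the factor that binds the small subunit, was at 1420 in the induced pool, 1612 in the uninduced pool, 726 in hypoxia, 1092 in wild type and 1195 in SM22-rtTA. Hypoxia was its lowest pool. The 15 measured genes of other messengers with a TOP tract, among them Tpt1 and Pabpc1, had a median spread of 1.22-fold, and 0 passed 1.5-fold after induction or in hypoxia against either control.

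Elongation and termination factors had 11 measured genes. Eef1a1, the widespread form of the factor that delivers aminoacyl-tRNA, was at 10610 in the induced pool, 10250 in the uninduced pool, 11437 in hypoxia, 13187 in wild type and 10687 in SM22-rtTA. Its paralogue Eef1a2, the form of muscle and neurons, was at 2936, 523, 1075, 927 and 582 in the same order. Eef1a2 was called higher after induction, 1 of 11 genes with 0 lower, beside 5.04% and 2.57% of all measured genes. All 19 skeletal muscle markers were above the floor in the induced pool. Their part in this value was not tested. Gspt1, a termination factor, was called lower in hypoxia than in wild type, beside 11.9% of all measured genes. It was at 368 in the induced pool, 411 in the uninduced pool, 400 in hypoxia, 694 in wild type and 481 in SM22-rtTA. Wild type was thus its highest pool. Against the transgenic pools the log2 ratio in hypoxia was -0.15, which was not called.

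Genes of ribosome production outside the ribosome itself are given next. The shares of all measured genes past 1.5-fold were 5.04% higher and 2.57% lower after induction. They were 7.60% and 11.9% in hypoxia against wild type, and 12.2% and 4.20% against the transgenic pools. The 42 measured genes of ribosome assembly and the nucleolus had a median spread of 1.39-fold. Of these 0 passed 1.5-fold after induction. In hypoxia against wild type 2 were higher, Bysl and Riok1, and 1 lower, Rpf2, beside 7.60% and 11.9% of all measured genes. Riok1 was at 758 in the induced pool, 738 in the uninduced pool, 799 in hypoxia, 461 in wild type and 503 in SM22-rtTA. Wild type was its lowest pool, and its log2 ratio in hypoxia against the transgenic pools, 0.39, was not called. The ratios of Bysl and Rpf2 to wild type are bounds, because Bysl in wild type and Rpf2 in hypoxia did not exceed the floor. Bysl and Rpf2 were also called against the transgenic pools. Against the transgenic pools 5 of 42 were higher in hypoxia and 2 lower, near the 12.2% and 4.20% of all measured genes. Among 17 measured regulators of ribosome production, 0 passed after induction. In hypoxia against wild type Sesn1, a stress-induced inhibitor of mTOR signalling, was higher and the kinase Mtor lower. Sesn1 was at 1295 in the induced pool, 1163 in the uninduced pool, 1093 in hypoxia, 693 in wild type and 1052 in SM22-rtTA, so wild type was low. Against the transgenic pools Sesn2, its relative, was the regulator called higher in hypoxia, by 0.99 on the log2 scale, and 0 were lower. Mtor was at 603 in the induced pool, 582 in the uninduced pool, 403 in hypoxia, 1109 in wild type and 372 in SM22-rtTA, so wild type was its highest pool and hypoxia lay beside SM22-rtTA. Of 17 measured factors that bind the ribosome or the nascent chain, 0 passed after induction or in hypoxia against wild type, and 1 was lower in hypoxia than in the transgenic pools (Dnajc2, a chaperone at the exit tunnel).

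The proteins of the mitochondrial ribosome, made from nuclear genes of their own, are given for comparison. Of 71 such genes on the array 69 were measured, with a median spread of 1.64-fold, and 46 (66.7%) were at least 1.5-fold apart. Over all measured genes these values were 1.56-fold and 55.6%. Wild type was the highest pool for 47 of the 69. In hypoxia against wild type 29 of 69 were lower and 0 higher, with a median log2 ratio of -0.51, where 11.9% of all measured genes were lower and 7.60% higher, and 24 and 27 were lower with the values as deposited and after quantile normalization. Against the transgenic pools the median in hypoxia was -0.08, with 4 higher and 3 lower, beside 12.2% and 4.20% of all measured genes. For wild type against the same pools it was 0.44, with 25 higher and 0 lower, beside 16.9% and 10.1%. Both of these comparisons depended on the scaling. For wild type the median was 0.22 with 9 of 68 higher as deposited, and 0.35 with 16 higher after quantile normalization. For hypoxia it was -0.24 with 1 higher and 8 lower as deposited, and -0.13 with 3 higher and 4 lower after quantile normalization. Mrpl42 was at 1555 in the induced pool, 984 in the uninduced pool, 775 in hypoxia, 1660 in wild type and 1014 in SM22-rtTA. Wild type and the induced pool were its highest. Mrpl51 was at 1625, 1221, 1014, 1981 and 956 in the same order. After induction 2 mitochondrial genes were higher and 0 lower against the uninduced pool, with a median of 0.18, beside 5.04% and 2.57% of all measured genes. Against SM22-rtTA 14 were higher and 0 lower, with a median of 0.32, beside 9.72% and 6.11%. These comparisons share arrays. The pools that were high for these genes were also those in which kidney proximal tubule markers (wild type) and skeletal muscle markers (induced) were above the floor. Brown fat markers, those of a tissue rich in mitochondria, were high in both, with summed intensities of 5373 in wild type and 8872 in the induced pool against 2015 to 2112 elsewhere. The part of those tissues was not tested. Over the same comparisons the cytosolic members had medians between 0.02 and 0.06 at this scaling.

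**Figure D5:**
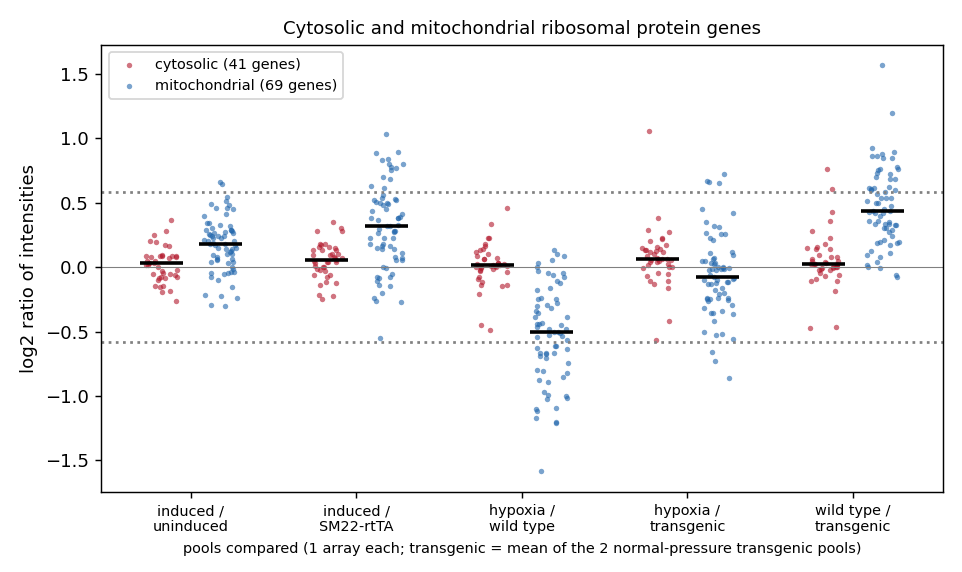
Each point is 1 gene, its y value the log2 ratio of intensities in the comparison named on the x axis (1 array a pool; transgenic is the mean log2 of the uninduced and SM22-rtTA pools); black bars are medians, and dotted lines mark 1.5-fold. The 41 cytosolic genes cluster around 0 in all 5 comparisons, while the median of the 69 mitochondrial genes lies at -0.51 for hypoxia against wild type and at 0.44 for wild type against the transgenic pools.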

How the data were processed

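Per the labels, total RNA from whole lung was pooled, biotin-labelled and hybridised to 1 array for each of 5 conditions. The authors deposited 1 linear intensity per probe set for 22626 probe sets. How probes were summarised, background-corrected and scaled before deposit is not stated in the sources used here. Between 9.85% and 12.5% of the deposited intensities of an array sat at the lower limit of 50. There were 0 unused value columns.

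Samples were grouped by title. Gene names came from the platform annotation, and a RefSeq table on GRCm38.p6 supplied the current symbol of each gene ID: 20380 probe sets had 1 gene (20351 matched), 691 several and 1555 none. From the deposited intensities log2 values were taken, shifted per array to a shared median, and raised to a floor at the 50th percentile of all shifted values. Where a pool lies at the floor, its ratio is a bound. A gene was called at 1.5-fold with the higher pool above the floor; spread is highest over lowest pool. The number of arrays limits the precision. Marker sums count a gene at the floor at the value of the floor.

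Members and gene lists were chosen with earlier results of these data known. Some members were named from the 4 highest and 4 lowest ratios of each comparison, and some because their probe sets differed in sign. Not every member that met either rule was named. Every called member, paralogues ending in l with their namesake, stalk proteins, Rpsa and Fau were also named. From other lists, genes came from the 3 largest ratios in a main comparison. Rpl6 and others outside these rules were named with their values already seen. The calculations were tested on simulated data. Python 3.11.15, numpy 2.4.6, pandas 2.3.3 and matplotlib 3.10.9 were used. Alternatives covered the scaling, floor, pseudocount, probe set choice, members and fold limit.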

Additional observations from a re-analysis of the deposited data

How the results depend on the processing

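No paired analysis was possible because each condition had 1 array and the labels carry no replicate numbers. Of the median log2 ratios of the members, 79 of 84 alternative values moved by no more than 0.1. That limit is larger than every main median, which lay between -0.05 and 0.06, so a change of sign can fall within it. For induction against hypoxia the median of -0.04 became 0.01 after quantile normalization. The count therefore does not show that a sign was stable. With values as deposited the median was -0.10 for hypoxia and -0.18 for wild type against the transgenic pools, and 0.075 for induction against hypoxia; after quantile normalization it was 0.18 for hypoxia against wild type and -0.17 for wild type against the transgenic pools. Of 100 alternative counts of members past the limit, 59 stayed within 1.5 times the main count, and the rest involve small numbers. In hypoxia against the transgenic pools (1 in the main setting) the count was 3 as deposited, 2 after quantile normalization, 2 with the floor at the 30th percentile, 3 with a pseudocount of 50 in place of the floor, 0 without the paralogues and 4 at a limit of 25%. For induction against hypoxia (1) the same settings gave 3, 2, 2, 3, 0 and 4. For wild type against the transgenic pools (2 higher, 0 lower), values as deposited gave 0 higher and 2 lower, of other genes; quantile normalization (1 lower), the floor at the 70th percentile and the pseudocount each gave 1, leaving out the paralogues gave 0, and limits of 25% and 2-fold gave 6 and 0. For SM22-rtTA against the uninduced pool (1), the floor at the 70th percentile, the pseudocount, leaving out the paralogues and 2-fold each gave 0, while a limit of 25% and probe sets without a suffix letter each gave 2. For induction against the uninduced pool (0), the low floor gave 1 (Rpl3l), the pseudocount 2, probe sets without a suffix 1 (Rps18) and a limit of 25% 1. Against SM22-rtTA (0) the low floor gave 2, the pseudocount 1 and a limit of 25% 1. For hypoxia against wild type (0) the mean of the probe sets gave 1 (Rps27l) and a limit of 25% 4. The low floor and the pseudocount admit the 4 members that the main floor leaves unmeasured. With the values as deposited 42 members were measured, and only 14 members remained with probe sets without a suffix. The cause of the other shifts was not tested.

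Some alternatives were chosen after seeing the data. The members' other probe sets gave 1 call for induction against the uninduced pool, 2 for hypoxia against wild type and 0 for induction against hypoxia. Probe sets that list several genes gave 1 for induction against the uninduced pool, 2 against SM22-rtTA, 3 for hypoxia and 2 for SM22-rtTA against their transgenic controls, and 2 for induction against hypoxia. The count of members at least 1.5-fold apart over the pools (4) was 7 with the low floor, 9 with the pseudocount and 2 with the mean of the probe sets, and the median spread (1.16-fold) was 1.24-fold with probe sets without a suffix, where 5 of 14 members were at least 1.5-fold apart against 4 of 41 in the main setting. With 1 array a condition, a difference between pools cannot be told apart from a difference between arrays.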

Other observations

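Markers of further cell types were measured in the same pools, and their part in the values of the ribosomal protein genes was not tested. Of 12 squamous epithelium markers, 10 were above the floor in hypoxia, with a summed intensity of 27702, and 8 in the induced pool (16446), against 3 or 4 in the other pools (3957 to 4262). Brown fat markers were above the floor for 4 of 7 in the induced pool, with a summed intensity of 8872, and for 5 of 7 in wild type (5373), and Ucp1, which defines that tissue, was at the floor in the other 3 pools. Of 10 B cell markers, 9 were above the floor in SM22-rtTA, with a sum of 8892, against 5 to 8 elsewhere (3883 to 5591). T cell markers were above the floor for 4 to 8 of 11 in every pool, with sums of 3660 to 5660. Neutrophil markers were above it for 5 to 7 of 10, with sums from 4193 in wild type to 17341 in the uninduced pool. Macrophage markers were above it for 6 or 7 of 10, with sums from 11179 in the induced pool to 18138 in hypoxia. The summed alveolar type 2 markers were lowest in the induced pool (44292) and otherwise between 53023 and 58272.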
